A study of Mus musculus with 13 samples.

Results

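RUNX1 and 9 other regulators of blood formation were followed through RNAseq of mouse embryonic stem (ES) cells differentiated in vitro. The list held Runx1, Cbfb, Runx1t1, Cbfa2t3, Gfi1, Gfi1b, Myb, Spi1, Hhex and Meis1, and members were the rows of the deposited gene table that carried one of these names. Of the 10 listed genes 9 had a row, out of 45250 rows in all, and Cbfa2t3 was not analysed here. Expression was given in FPKM, the fragments of a gene scaled to its transcript length and to a measure of library size. A gene was tested where 2 or more libraries reached 1 FPKM, as in 13802 genes and 8 of the members, Gfi1 being the one that did not.

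The 13 libraries came from 2 stages. Flk-1+ haemangioblasts, mesodermal progenitors of endothelium and blood, were isolated with magnetic beads from embryoid bodies of WT, Lmo2-/- and Tal1-/- ES cells, with 3 libraries each. Haemogenic endothelium 1 (HE1) was sorted as Tie2+ Kit+ CD41- cells from blast cultures of WT and Lmo2-/- cells, with 2 libraries each. The WT cells were the CCB line and each deleted genotype was 1 named ES line, so a difference between genotypes and a difference between lines cannot be told apart, and p-values measure only the spread between the libraries of a line. Libraries are numbered here as in the columns of the deposited table, from 0, and values are given in that order.

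RUNX1 is a DNA-binding factor that works as a dimer with CBFB and is required for blood cells to emerge from haemogenic endothelium. GFI1 and GFI1B are repressors that act downstream of RUNX1 in switching off the endothelial programme, MYB and SPI1 (PU.1) act in definitive progenitors and myeloid cells, and HHEX and MEIS1 are homeodomain factors used in both endothelium and blood. LMO2 bridges TAL1 and GATA factors on DNA, and several of these genes are known targets of such complexes.

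The bases upstream of 4 members are shown because these were the members whose Flk-1+ values lay below all WT values in every Tal1-/- library. They were taken from the RefSeq promoter table (GRCm38.p6), which held 11 promoters for 8 of the 10 listed genes, and bases within an annotated exon were left out. Each was searched on both strands for the GATA letters (AGATAA or its variant AGATAG, and TGATAA or its variant TGATAG), the E-box CAGCTG, the E-box variant CAGATG, the RUNX letters TGTGGT and the ETS letters CCGGAA. Matches are in capitals. The Runx1 sequences lie on the minus strand of chromosome 16, the distal one at chr16:92826150-92826324 and the proximal one at chr16:92697330-92697579. Those of Hhex, Myb and Gfi1b lie at chr19:37434591-37434809 (plus strand), chr10:21160985-21161234 (minus strand) and chr2:28621983-28622232 (minus strand).
Runx1 distal: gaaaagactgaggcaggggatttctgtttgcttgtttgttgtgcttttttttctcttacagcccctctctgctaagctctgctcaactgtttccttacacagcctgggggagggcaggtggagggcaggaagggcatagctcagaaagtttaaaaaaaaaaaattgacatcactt
Runx1 proximal: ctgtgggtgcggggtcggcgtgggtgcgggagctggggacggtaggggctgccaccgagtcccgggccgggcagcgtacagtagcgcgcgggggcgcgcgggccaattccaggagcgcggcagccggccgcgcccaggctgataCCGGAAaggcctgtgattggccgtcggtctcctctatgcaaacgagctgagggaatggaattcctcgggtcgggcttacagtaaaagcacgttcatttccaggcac
Hhex: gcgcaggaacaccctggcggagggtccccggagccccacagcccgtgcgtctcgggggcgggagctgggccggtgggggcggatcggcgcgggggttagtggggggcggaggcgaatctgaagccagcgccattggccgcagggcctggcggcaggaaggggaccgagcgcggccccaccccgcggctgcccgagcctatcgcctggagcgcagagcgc
Myb: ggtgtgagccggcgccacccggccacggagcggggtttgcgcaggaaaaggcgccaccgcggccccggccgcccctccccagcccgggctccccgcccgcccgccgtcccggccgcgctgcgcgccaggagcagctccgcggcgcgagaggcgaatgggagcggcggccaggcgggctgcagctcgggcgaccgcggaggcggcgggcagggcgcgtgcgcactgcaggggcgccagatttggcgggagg
Gfi1b: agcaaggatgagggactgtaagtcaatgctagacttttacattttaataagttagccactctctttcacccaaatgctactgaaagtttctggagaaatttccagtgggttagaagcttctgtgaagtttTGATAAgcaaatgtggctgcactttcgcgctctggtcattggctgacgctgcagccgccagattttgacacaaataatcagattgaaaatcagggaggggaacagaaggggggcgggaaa
The proximal Runx1 promoter held ETS letters at -106 from its start site, and the Gfi1b promoter held GATA letters at -120. None of the other 3 sequences held any of these letters. Over the 250 upstream bases of 32851 promoters, GATA letters were found in 26.5%, ETS letters in 12%, CAGCTG in 13%, CAGATG in 14.4% and RUNX letters in 14%. The FPKM of Runx1 is 1 value for the whole locus, so transcripts from its distal and proximal promoters were not separated.

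The deleted genes checked the labels at the Flk-1+ stage. Tal1 stood at 37.4, 25.6 and 22.0 FPKM in WT and at 2.74, 3.41 and 2.88 FPKM in Tal1-/- cells. Lmo2 stood at 22.8, 30.8 and 21.6 FPKM in WT and at 2.63, 6.48 and 2.17 FPKM in Lmo2-/- cells. In HE1, however, Lmo2 did not separate the genotypes, with 4.30 and 20.6 FPKM in the libraries labelled WT and 6.42 and 0 FPKM in those labelled Lmo2-/-, so every direction between HE1 genotypes rests on the labels. Kdr, which encodes Flk-1, lay between 68.7 and 252 FPKM in the 9 Flk-1+ libraries, and Tek (Tie2) and Kit lay between 42.4 and 176 FPKM in the 4 HE1 libraries. Itga2b, which encodes the CD41 that the HE1 sort excluded, was at 15.4, 10.4, 19.8 and 0 FPKM in HE1. Replicate 1 of Lmo2-/- HE1 stood apart, with 9694 genes above 0 against 11861 to 15641 in the other 12 libraries, and with 39.8% of the genes that averaged 2 to 5 FPKM elsewhere listed at 0, against 3.14% to 20.5%. Detection also differed between groups. Of the genes that averaged 0.5 to 2 FPKM in the other libraries, 14.2% to 21.7% were listed at 0 in WT Flk-1+ libraries. The share was 14.1% to 33.6% in Lmo2-/- Flk-1+, 28.8% to 39.7% in Tal1-/- Flk-1+ and 42.8% to 50.9% in WT HE1 libraries. In the Lmo2-/- HE1 libraries it was 40.08% and 68.65%. Low genes were thus more often listed at 0 in Tal1-/- Flk-1+ and HE1 libraries than in WT Flk-1+ libraries. A value of 0 is therefore given below as listed at 0. The files hold no fragment counts, so the depth is unknown and no counting interval is given.

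Differences are in log2(FPKM + 1), from limma over all 13 libraries, with p-values adjusted by Benjamini-Hochberg over all tested genes and called below 0.05. The pseudocount makes them understate the change of low genes. An exact permutation test of 1 gene could not go below a two-sided p of 0.1 for 3 against 3 libraries, 0.2 for 2 against 3 or 0.333 for 2 against 2. In the change from Flk-1+ cells to HE1, the median difference of all tested genes was 0.11 in WT and 0.31 in Lmo2-/- cells, and became -0.24 and -0.34 when each library was rescaled to a common median, so the stage differences of members are to be read against these shifts.

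**Figure D1:**
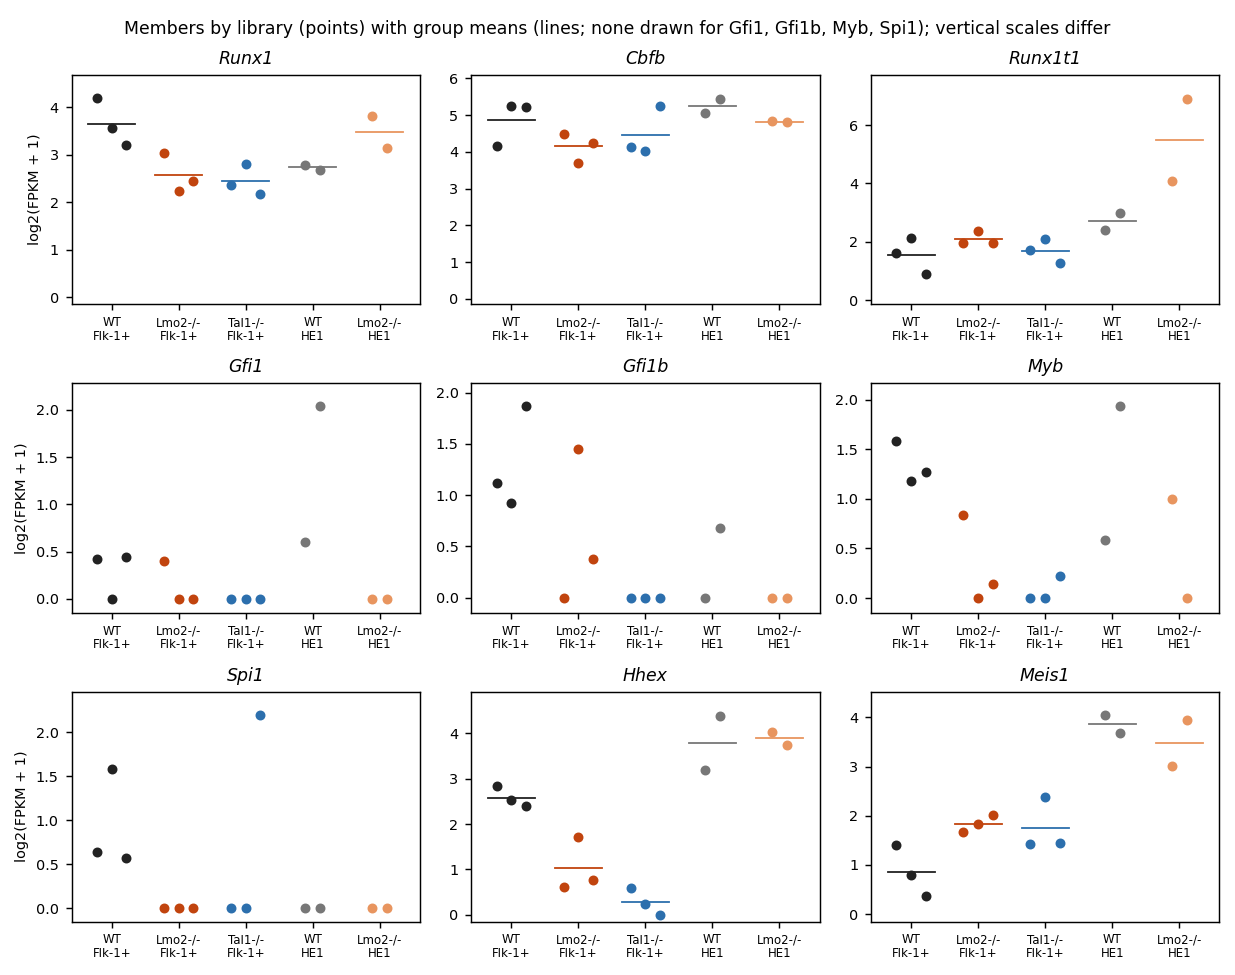
Each panel shows 1 member, with log2(FPKM + 1) on the vertical axis and the 5 groups on the horizontal axis. Points are libraries and lines are group means, which are not drawn for Gfi1, Gfi1b, Myb and Spi1. Runx1 and Hhex are highest among Flk-1+ cells in WT, Runx1t1 is highest in Lmo2-/- HE1, Meis1 is high in both HE1 groups, and most Gfi1, Gfi1b, Myb and Spi1 points are at or near 0.

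Runx1 (XLOC_014811, chr16:92601466-92826149 of mm10) was lower in both knockouts than in WT at the haemangioblast stage in every library. It stood at 17.2, 10.8 and 8.15 FPKM in WT Flk-1+ cells, at 7.20, 3.69 and 4.44 FPKM in Lmo2-/- Flk-1+ cells and at 4.17, 5.97 and 3.49 FPKM in Tal1-/- Flk-1+ cells. The lowest WT library was above the highest library of either knockout, while the knockouts overlapped each other. Runx1 thus averaged 12.04 ± 4.63 FPKM in WT, 5.11 ± 1.85 FPKM in Lmo2-/- and 4.54 ± 1.28 FPKM in Tal1-/- cells (SD, n = 3 libraries in each group). The differences to WT were -1.08 ± 0.40 (SE) in Lmo2-/- and -1.20 ± 0.40 in Tal1-/- cells, and neither passed the limma test (adjusted p = 1 and 0.627). The exact permutation p was 0.1 for both, the smallest it can give. Over the alternatives the difference stayed between -1.31 and -0.81 for Lmo2-/- and between -1.43 and -0.93 for Tal1-/-. In bulk RNA, fewer cells of a type and less RNA per cell cannot be told apart. The 18 early blood cell genes summed to 9.96 to 13.5 FPKM in WT, 4.96 to 6.28 FPKM in Lmo2-/- and 2.16 to 8.09 FPKM in Tal1-/- Flk-1+ cells, with Ptprc (CD45), Pf4 and Tyrobp at 0 in all libraries, and their part in the Runx1 result was not tested.

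Between Flk-1+ cells and HE1, the Runx1 difference had opposite signs in the 2 genotypes on the FPKM scale. The WT HE1 libraries, at 5.91 and 5.42 FPKM, were both below the WT Flk-1+ libraries, a difference of -0.91 ± 0.45 (adjusted p = 0.240). The libraries labelled Lmo2-/- HE1, at 13.1 and 7.83 FPKM, were both above the Lmo2-/- Flk-1+ libraries, a difference of 0.91 ± 0.45 (adjusted p = 0.153). Such an opposite pattern without overlap was found for 2.33% of all tested genes. The interaction of genotype and stage was 1.82 ± 0.64 and did not pass (adjusted p = 0.259). In the authors' values pooled per condition, Runx1 was at 13.7 FPKM in WT Flk-1+ cells and 5.19 FPKM in WT HE1. The pooled values in Lmo2-/- cells were close to each other, at 5.41 FPKM in Flk-1+ cells and 6.46 FPKM in HE1. The difference in Lmo2-/- cells depended on the scale. After rescaling to a common median it was 0.04 (adjusted p = 0.969), and replicate 1 of Lmo2-/- HE1, at 3.81 rescaled FPKM, then fell below all 3 Lmo2-/- Flk-1+ libraries, which were at 9.13, 4.33 and 5.69. By percentile among the tested genes of its own library, Runx1 was at 80.8, 73.2 and 67 in WT Flk-1+ cells, 63.3, 44.5 and 49.7 in Lmo2-/- Flk-1+ cells, 51.6 and 49.5 in WT HE1, and 68.2 and 50.8 in Lmo2-/- HE1. Both knockouts and WT HE1 lay below WT Flk-1+ cells without overlap on all 3 scales. The order of the group means was WT Flk-1+, Lmo2-/- HE1, WT HE1, Lmo2-/- Flk-1+ and Tal1-/- Flk-1+, and of neighbours in that order only Lmo2-/- HE1 and WT HE1 had libraries that did not overlap.

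**Figure D2:**
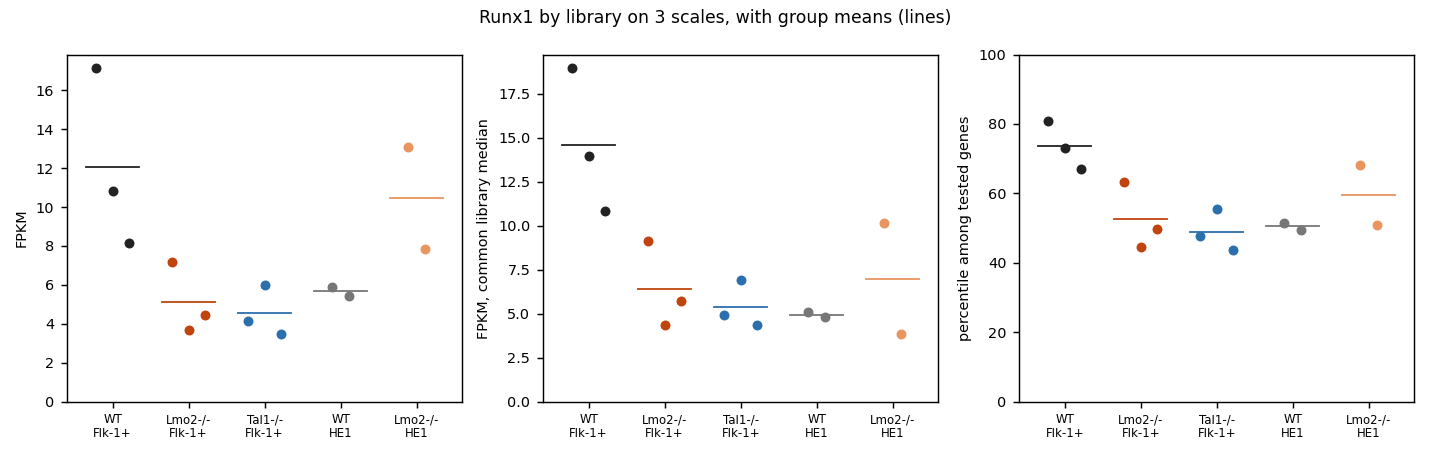
Runx1 in each library (points) with group means (lines), as deposited FPKM (left), as FPKM after rescaling each library to a common median (middle) and as the percentile among 13802 tested genes of that library (right). WT Flk-1+ cells are above both knockouts and WT HE1 in all 3 panels, while replicate 1 of Lmo2-/- HE1 moves from above the Lmo2-/- Flk-1+ points to below them in the middle panel and in among them in the right one.

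Cbfb (XLOC_038147, chr8:105170674-105217989), which encodes the partner that stabilises RUNX1 on DNA, was expressed in every group. It stood at 16.8, 36.7 and 36.3 FPKM in WT, 21.5, 12.1 and 18.0 FPKM in Lmo2-/- and 16.6, 15.3 and 36.9 FPKM in Tal1-/- Flk-1+ cells. HE1 had 32.0 and 42.6 FPKM in WT and 27.6 and 27.0 FPKM in Lmo2-/- libraries. The 3 Flk-1+ groups overlapped and none of the Cbfb comparisons passed. The difference of Lmo2-/- to WT Flk-1+ cells was -0.72 ± 0.41 (adjusted p = 1), and its sign in the stage comparisons changed with rescaling. Within each library Cbfb was above Runx1 per kilobase, except in replicate 0 of WT Flk-1+ cells, where the values were 16.8 and 17.2 FPKM. The authors' values pooled per condition were 78.4 FPKM in WT, 36.5 FPKM in Lmo2-/- and 54.5 FPKM in Tal1-/- Flk-1+ cells. They were 57.5 FPKM in WT HE1 and 23.9 FPKM in Lmo2-/- HE1. Each pooled value lay above every library of its group, except in Lmo2-/- HE1, where it lay below both.

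Runx1t1 (XLOC_024818, chr4:13743436-13893649) encodes ETO, a corepressor that is fused to RUNX1 in acute myeloid leukaemia. It was low in all Flk-1+ cells, at 2.05, 3.42 and 0.868 FPKM in WT, 2.85, 4.15 and 2.89 FPKM in Lmo2-/- and 2.30, 3.30 and 1.41 FPKM in Tal1-/- libraries. WT HE1 had 4.31 and 6.93 FPKM, and the libraries labelled Lmo2-/- HE1 had 16.0 and 119 FPKM, both above every other library but far apart from each other. The authors' value pooled per condition was 10.7 FPKM in Lmo2-/- HE1, below both libraries. It was 2.79 FPKM in WT HE1 and 2.02 FPKM in Lmo2-/- Flk-1+ cells. Runx1t1 rose by 3.41 ± 0.69 from Flk-1+ cells to HE1 in Lmo2-/- cells (adjusted p = 0.00374), and this remained called after rescaling (2.47, adjusted p = 0.017) and, at a smaller size, without replicate 1 of Lmo2-/- HE1 (1.997, adjusted p = 0.0388). It was lost when the 2 groups were fitted alone (adjusted p = 0.0692). The difference between the HE1 genotypes was 2.80 ± 0.76, which narrowly missed the threshold (adjusted p = 0.054, between 0.00114 and 0.547 over the alternatives). It was 1.39 without replicate 1 of Lmo2-/- HE1 (adjusted p = 0.340) and 4.21 without replicate 0 (adjusted p = 0.00114). The interaction was 2.26 ± 0.98 (adjusted p = 0.368), and was 0.85 without replicate 1 (adjusted p = 0.769) and 3.67 without replicate 0 (adjusted p = 0.0113). Each of these leaves 1 Lmo2-/- HE1 library, which is assumed to vary like the other groups, and without replicate 0 it is the library that stood apart. In the within-library ranking Runx1t1 was at the percentiles 72.9 and 94.8 in Lmo2-/- HE1 and 45.5 and 55.1 in WT HE1.

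The summed markers of mesenchyme were highest in the 2 libraries with the highest Runx1t1. The 9 smooth muscle and mesenchyme markers summed to 204 to 240 FPKM in WT HE1 and 472 to 1386 FPKM in Lmo2-/- HE1, against 38.8 to 86.1 FPKM over the Flk-1+ libraries, although Cnn1 and Myl9 were listed at 0 in replicate 1 of Lmo2-/- HE1. Between the HE1 genotypes 4 of the 9 were higher, namely Pdgfra (2.98 and 1.01 FPKM in WT, 37.3 and 94.5 FPKM in Lmo2-/-), Pdgfrb, Col1a1 and Col3a1, with differences of 3.54 to 4.42, and these 4 calls were kept under both rescaling and quantile normalization. Over all tested genes 4.54% were called between the HE1 genotypes, in either direction. Acta2 gave the largest part of each HE1 sum. Not all markers followed Runx1t1. Tagln was at 50.5 and 53.7 FPKM in WT HE1 and at 59.0 and 24.1 FPKM in Lmo2-/- HE1. Pdgfra was called lower in WT differentiation, under rescaling and quantile normalization as well. The part of these markers in the Runx1t1 result was not tested.

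**Figure D3:**
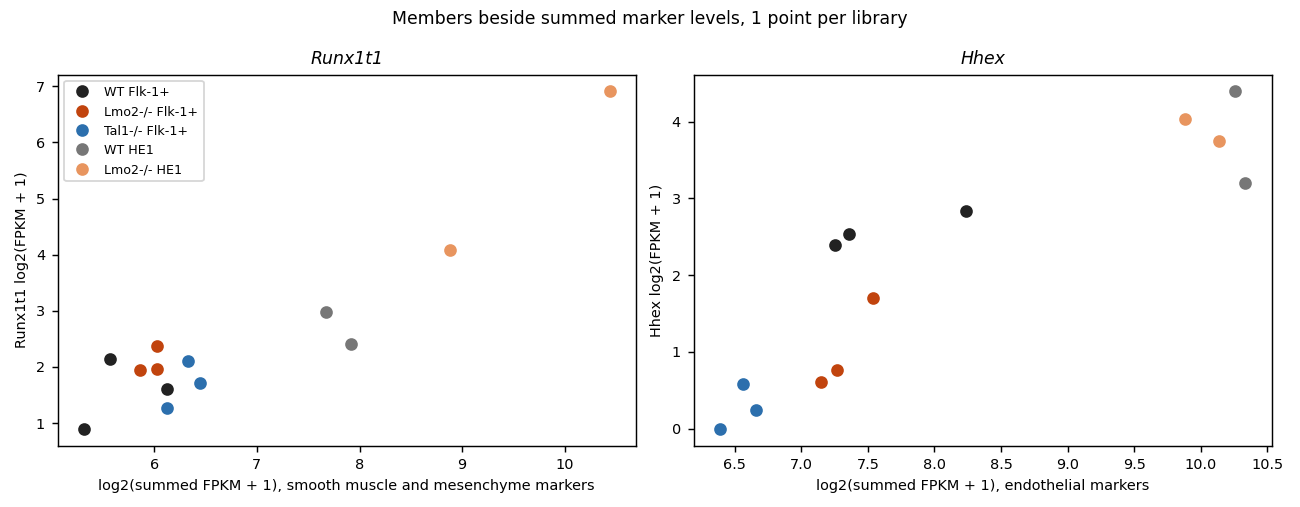
Each point is 1 library of the 5 groups, with log2(FPKM + 1) of Runx1t1 against the summed smooth muscle and mesenchyme markers (left) and of Hhex against the summed endothelial markers (right). The 2 Lmo2-/- HE1 libraries are highest for both Runx1t1 and the mesenchyme markers. For Hhex the 4 HE1 libraries are at the upper right and the Tal1-/- Flk-1+ libraries at the lower left. The endothelial markers include Kdr, Tek and Kit, which encode antigens that the cells were sorted on.

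Hhex (XLOC_017655, chr19:37434810-37440731), a homeodomain factor of early endothelium and blood progenitors, was low in the knockout haemangioblasts and high in HE1 of both genotypes. It stood at 6.12, 4.79 and 4.23 FPKM in WT, 0.519, 2.26 and 0.704 FPKM in Lmo2-/- and 0.494, 0.182 and 0 FPKM in Tal1-/- Flk-1+ cells. Neither knockout overlapped WT. The differences to WT were -1.56 ± 0.46 in Lmo2-/- (adjusted p = 1) and -2.31 ± 0.46 in Tal1-/- cells (adjusted p = 0.164), so neither was called, although the latter passed with array weights (adjusted p = 0.0419). Every Tal1-/- library was also below every Lmo2-/- Flk-1+ library, but the gap between the nearest libraries was small and they overlapped when ranked within the library. In HE1 the values were 8.20 and 20.0 FPKM in WT and 15.4 and 12.4 FPKM in Lmo2-/- libraries, with 1 genotype inside the range of the other (difference 0.10 ± 0.56). Hhex rose by 2.87 ± 0.51 from Flk-1+ cells to HE1 in Lmo2-/- cells (adjusted p = 0.00178), and was called under 14 alternatives, rescaling among them. In WT cells the difference was 1.21 ± 0.51 and did not pass (adjusted p = 0.166). The interaction was 1.65 ± 0.72 and did not pass either (adjusted p = 0.371). The 10 endothelial markers summed to 151 to 300.5 FPKM in WT and 141 to 185 FPKM in Lmo2-/- Flk-1+ cells, which overlapped, and to 82.7 to 100 FPKM in Tal1-/- Flk-1+ cells and 944 to 1290 FPKM in HE1, which did not overlap with these. Kdr, which encodes the sorted Flk-1, made up most of every Flk-1+ sum, with 252, 100 and 115 FPKM in WT. Tek and Kit, also listed, were selected by the HE1 sort, so these sums partly follow the sorting. Of the 10 markers, 2 lay below all WT Flk-1+ libraries in every Lmo2-/- library, against 4.22% of all tested genes. In Tal1-/- cells 6 lay below WT, against 7.4%, and 1 (Kit) lay above, against 5.25%. No call was made in either comparison for the 10 markers. Their part in the Hhex result was not tested.

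Meis1 (XLOC_006443, chr11:18879817-19018985), a TALE homeodomain cofactor of HOX and PBX proteins, was the one member that passed in WT differentiation. Its row in the files is shared with the overlapping annotation Gm37818, so the 2 cannot be separated. It stood at 1.66, 0.744 and 0.287 FPKM in WT, 2.17, 2.54 and 3.05 FPKM in Lmo2-/- and 1.68, 4.19 and 1.72 FPKM in Tal1-/- Flk-1+ cells, and the WT libraries were below those of both knockouts. These differences, 0.98 ± 0.45 and 0.89 ± 0.45, did not pass (adjusted p = 1 and 0.870). HE1 had 15.4 and 11.8 FPKM in WT and 7.09 and 14.4 FPKM in Lmo2-/- libraries. Meis1 rose by 3 ± 0.51 from Flk-1+ cells to HE1 in WT (adjusted p = 0.00229), a call kept under rescaling (2.67) and quantile normalization (2.99). In Lmo2-/- cells the rise was 1.64 ± 0.51 (adjusted p = 0.0307). That call was lost under 10 alternatives, with a difference of 0.78 after rescaling (adjusted p = 0.282) and 1.18 without replicate 1 of Lmo2-/- HE1 (adjusted p = 0.191). The interaction was -1.36 ± 0.72 (adjusted p = 0.470). Of the member promoters in the table, that of Meis1 was the one with RUNX letters, at -166.

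The 4 remaining members were close to the lower end of the scale, and no group mean is given because each was listed at 0 in several libraries. Gfi1b (XLOC_020442, chr2:28609450-28621982), a repressor needed in erythroid and megakaryocytic cells, stood at 1.18, 0.896 and 2.65 FPKM in WT Flk-1+ cells and at 0, 1.73 and 0.294 FPKM in Lmo2-/- Flk-1+ cells. It was listed at 0 in all Tal1-/- and Lmo2-/- HE1 libraries and stood at 0 and 0.600 FPKM in WT HE1. The Tal1-/- Flk-1+ libraries were thus all below WT (adjusted p = 0.589). Gfi1 (XLOC_030063, chr5:107716657-107728801), its close relative, was above 0 in 5 of the 13 libraries, with 0.338, 0 and 0.355 FPKM in WT and 0.322, 0 and 0 FPKM in Lmo2-/- Flk-1+ cells. The WT HE1 libraries had 0.514 and 3.11 FPKM, the 2 highest Gfi1 values, and the Tal1-/- Flk-1+ and Lmo2-/- HE1 libraries were all listed at 0.

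Myb (XLOC_004201, chr10:21124936-21160905), a factor of definitive progenitors, stood at 1.99, 1.27 and 1.42 FPKM in WT Flk-1+ cells. The Lmo2-/- libraries had 0.789, 0 and 0.104 FPKM and the Tal1-/- libraries 0, 0 and 0.170 FPKM, all below WT. The differences of -1.02 ± 0.42 and -1.27 ± 0.42 did not pass (adjusted p = 1 and 0.627). In HE1 Myb was at 0.5 and 2.82 FPKM in WT and 0.994 and 0 FPKM in Lmo2-/- libraries, which overlapped. Spi1 (XLOC_019305, chr2:91082390-91115756), the myeloid factor PU.1, was above 0 in 4 libraries, the WT Flk-1+ cells at 0.564, 2 and 0.482 FPKM and replicate 2 of the Tal1-/- Flk-1+ cells at 3.59 FPKM. It was listed at 0 in every Lmo2-/- library and in WT HE1. No member with a row was at 0 in all 13 libraries.

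Counted together, 0 of the 8 tested members were called between Lmo2-/- and WT Flk-1+ cells, against 0.0% of all tested genes, and 3 had an unadjusted p below 0.05 (Runx1, Hhex and Myb), against 2.22% of all genes. Tal1-/- and WT Flk-1+ cells likewise gave 0 called members (0.0% of all genes), with 4 at an unadjusted p below 0.05 (Runx1, Hhex, Myb and Gfi1b), against 6.11% of all genes. The members whose libraries lay below all WT libraries were Runx1, Hhex, Myb and Spi1 in Lmo2-/- cells (4 of 8, against 4.22% of all tested genes) and Runx1, Hhex, Myb and Gfi1b in Tal1-/- cells (4 of 8, against 7.4%). Meis1 was above WT in both, with backgrounds of 3.99% and 5.25%. These counts of members were the same after rescaling and by percentile. Runx1, Hhex and Myb were below WT in every library of both knockouts, as were 1.22% of all tested genes. Both comparisons share the WT libraries, so they are not independent of each other. Gfi1b, Myb and Spi1 passed the filter with 2 to 4 libraries at or above 1 FPKM, most of them WT, so the counts of members are a description only. The same limit holds for the median difference of the tested members, which was -0.83 in Lmo2-/- and -0.80 in Tal1-/- cells. Over all tested genes it was -0.01 in both. As these 3 members enter the median, it too is a description only.

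In the stage comparisons 1 of 8 tested members rose in WT (Meis1), against 7.59% of all genes called higher, and 3 of 8 rose in Lmo2-/- cells (Runx1t1, Hhex and Meis1), against 19.8%. No member was called lower in either, against 2.16% and 5.71% of all genes. An unadjusted p below 0.05 was found for 2 members in WT (Meis1 and Hhex, against 23.9% of all genes) and for 3 in Lmo2-/- cells (38.7%). Without overlap, 3 members were higher (Runx1t1, Hhex and Meis1, against 27.6% of all genes) and 3 lower (Runx1, Gfi1b and Spi1, against 17.2%) in WT HE1 than in WT Flk-1+ cells. In Lmo2-/- cells 5 were higher (Runx1, Cbfb, Runx1t1, Hhex and Meis1, against 31.9%) and 0 lower (15.1%), and the 5 became 3 after rescaling, without Runx1 and Cbfb. The Lmo2-/- and WT HE1 comparison gave 0 called members (4.54% of all genes were called), with 1 at an unadjusted p below 0.05 (Runx1t1), against 20.7% of all genes. Without overlap Runx1 and Runx1t1 were higher (25.9% of all genes) and Cbfb lower (13.8%) in Lmo2-/- HE1, and of the higher ones Runx1t1 alone stayed so after rescaling and by percentile. The interaction gave 0 called members against 0.464% of all genes, and 3 with an unadjusted p below 0.05 (Runx1, Runx1t1 and Hhex), against 12.1%. Tal1-/- and Lmo2-/- Flk-1+ cells gave 0 called members against 0.0145% of all genes, and 0 members had an unadjusted p below 0.05 (5.96% of all genes). Without overlap 1 member was lower in Tal1-/- cells (Hhex, against 6.66% of all genes) and 0 were higher (6.59%).

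**Figure D4:**
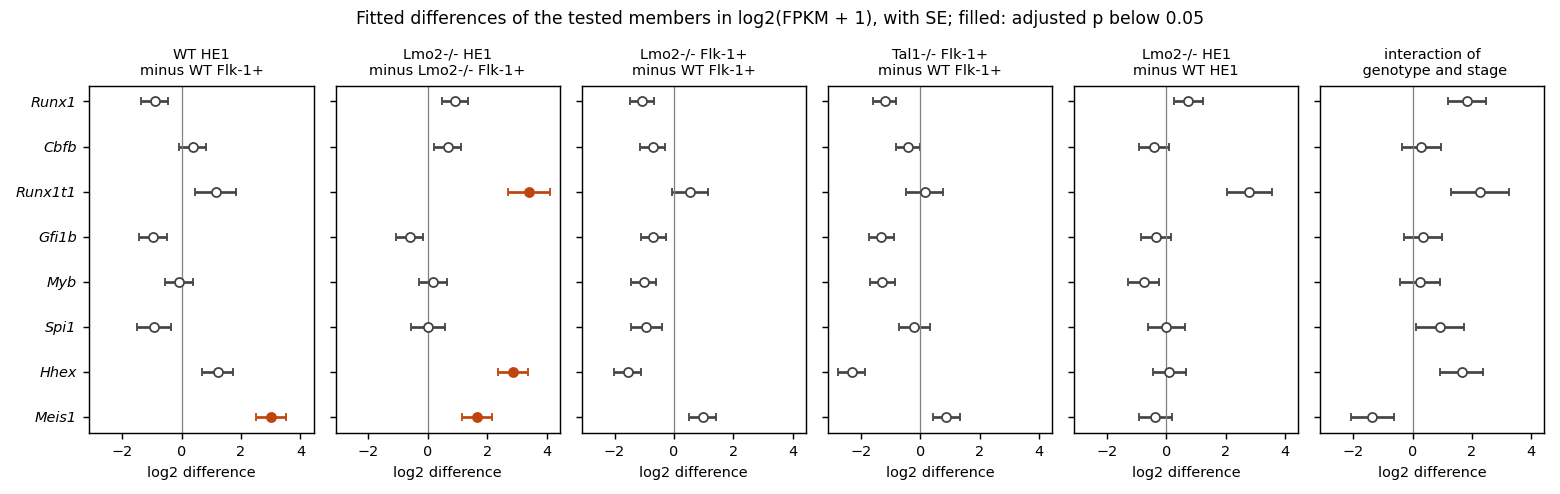
Differences in log2(FPKM + 1) with their SE for the 8 tested members in 5 pairwise comparisons and the interaction; filled points passed the adjusted p of 0.05. Filled points are Meis1 in WT differentiation and Runx1t1, Hhex and Meis1 in Lmo2-/- differentiation. In both Flk-1+ comparisons Runx1, Cbfb, Gfi1b, Myb, Spi1 and Hhex lie left of 0, and Runx1t1 and Meis1 lie right of it.

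Of the other factors of the haematopoietic network, 7 of 8 listed had a row and were tested, and some of them also lay below WT in the knockout Flk-1+ cells. The 2 with all Lmo2-/- libraries below WT were Fli1 and Lmo2 itself, against 4.22% of all tested genes. In Tal1-/- cells 5 of 7 were below WT, the deleted Tal1 among them, against 7.4% of all tested genes. Fli1, an ETS factor, went from 14.0, 11.5 and 9.62 FPKM in WT to 1.20, 0.928 and 0.926 FPKM in Lmo2-/- and 0.511, 1.13 and 1.73 FPKM in Tal1-/- cells, a difference of -2.65 ± 0.35 in Lmo2-/- cells that narrowly missed the threshold (adjusted p = 0.058). None of the 7 was called in either knockout by limma as deposited, and neither was any other tested gene. Fli1 was called lower in Lmo2-/- cells after quantile normalization and in Tal1-/- cells after quantile normalization or rescaling. In differentiation to HE1, 4 of 7 rose in WT (Erg, Fli1, Lyl1 and Etv6), against 7.59% of all tested genes called higher. In Lmo2-/- cells 4 of 7 rose (Fli1, Erg, Etv6 and Tal1), against 19.8%. Of these, Fli1 and Lyl1 in WT and Fli1 and Erg in Lmo2-/- cells remained after rescaling. Lyl1, a relative of TAL1, was at 4.49 and 5.01 FPKM in WT HE1 and 0.164 and 0 FPKM in Lmo2-/- HE1, where it fell by 2.41 on the log2 scale (adjusted p = 0.00753), a call kept under both rescaling and quantile normalization.

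Paralogues and cofactors of the members were tested as 4 further lists. Of 10 tested RUNX and ETO paralogues and corepressors none was called in WT differentiation as deposited, while Tle3 (-2.04 ± 0.82, adjusted p = 0.146) was called lower under both rescaling and quantile normalization. Tle4, Cbfa2t2 and Ncor1 rose in Lmo2-/- differentiation, by 1.32 to 1.78, and no gene of the list was called there after rescaling, when the list's median went from 1.01 to 0.03. Runx3 lay between 0 and 2.53 FPKM in all libraries, and Runx2 did not pass the filter. Of 9 members of the GFI1 and GFI1B corepressor complex, Rcor1 rose in WT (1.23 ± 0.33, adjusted p = 0.0312), Rcor1 and Rcor3 rose in Lmo2-/- differentiation, and Hmg20b was higher in Lmo2-/- than in WT HE1 (adjusted p = 0.0374), and these calls too were lost after rescaling. Rcor2 was instead called lower in differentiation of both genotypes under rescaling and under quantile normalization. The coactivator Crebbp was the 1 of 6 tested MYB family members and coactivators that was called, higher in Lmo2-/- HE1 than in Lmo2-/- Flk-1+ cells (1.45 ± 0.39, adjusted p = 0.0167), and was not called after rescaling. Among 8 MEIS and PBX family genes Meis2 rose in Lmo2-/- differentiation (1.76 ± 0.53, adjusted p = 0.0269), a call lost after rescaling. Under rescaling and under quantile normalization Pbx3 was called lower in Lmo2-/- and Pknox2 in WT differentiation. Pknox2 was higher in Lmo2-/- than in WT HE1 (9.49 and 50.3 against 1.87 and 0.189 FPKM, adjusted p = 0.00873), a call kept under rescaling. No gene of these 4 lists was called in either Flk-1+ comparison with WT, and neither was any other tested gene (0.0% in both). As deposited, 7.59% of all tested genes were called higher in WT and 19.8% in Lmo2-/- differentiation. Between the HE1 genotypes 4.54% were called, in either direction.

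Markers of blood cells were sparse in all groups. The early blood cell genes summed to 24.9 to 32.7 FPKM in WT HE1 and 12.99 to 32.1 FPKM in Lmo2-/- HE1. Lcp1, an actin-bundling protein of leukocytes, was the 1 of 8 tested that rose in differentiation, in both genotypes. Neither call held after rescaling, while both held under quantile normalization, which also called Laptm5 higher in WT differentiation. Ikzf1, a lymphoid and progenitor factor, was, like Myb, highest in WT among Flk-1+ cells, with 3.12, 3.60 and 1.99 FPKM in WT, 0.599, 0.354 and 0.964 FPKM in Lmo2-/- and 0 in all Tal1-/- libraries (adjusted p = 0.126 for Tal1-/- against WT). The 10 primitive erythroid genes summed to at most 8.60 FPKM in a library and none of the 2 tested was called. Nfe2 and Gata1, factors of erythroid and megakaryocytic cells, were above 0 in all 3 WT Flk-1+ libraries, and otherwise at 0 except for Gata1 in replicate 2 of Lmo2-/- Flk-1+ cells (0.129 FPKM). Their part in the Gfi1b, Myb and Spi1 values was not tested. Of the other markers, 8 of 10 endothelial genes rose in WT and 7 of 10 in Lmo2-/- differentiation. Tek and Kit, which the HE1 sort selected, were among them in both. Emcn was lower in Lmo2-/- HE1 than in WT HE1. Of 7 tested cardiac genes 1 fell in WT, and 3 fell and 1 rose in Lmo2-/- differentiation. Of 4 tested endoderm genes Sox17 rose in WT differentiation. Of 4 tested pluripotency genes 3 fell in WT and 2 in Lmo2-/- differentiation. Over all tested genes 7.59% were called higher and 2.16% lower in WT differentiation. In Lmo2-/- differentiation the shares were 19.8% and 5.71%.

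Among the 5 genes whose pattern over the 13 libraries was most like that of Runx1 were Pdcd11, Ablim1, Lin7c and Dusp4, out of 7281 compared genes with a group mean of at least 10 FPKM. Their Pearson correlations on log2(FPKM + 1) were 0.82, 0.82, 0.74 and 0.73, with Spearman values of 0.82, 0.83, 0.50 and 0.63. These are descriptions over libraries that fall into 5 groups and share their depth. Dusp4, a MAP kinase phosphatase, was at 28.9, 17.3 and 17.5 FPKM in WT, 11.1, 9.69 and 11.3 FPKM in Lmo2-/- and 6.60, 6.49 and 7.32 FPKM in Tal1-/- Flk-1+ cells. Gata2 ranked 37, Tal1 42, Hhex 105, Lmo2 138 and Fli1 156 by the same measure, while Cbfb ranked 3580 and Meis1 5671.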

How the data were processed

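RNAseq of 13 libraries in 5 groups was used. The authors aligned reads with TopHat2 (2.0.9) to GRCm38/mm10, assembled transcripts with Cufflinks (2.0.0, quartile normalization) and merged them, and deposited FPKM per gene for each library (Cuffnorm) and pooled per condition (Cuffdiff 2.0.1). The library FPKM gave all values except the pooled ones given for Runx1, Cbfb and Runx1t1. The condition table gave those, gene names and positions. Each GEO record covers all libraries of a group, and replicate numbers come from the column names, all of which were used. The authors' table of comparisons, with fold changes and p-values, was not used.

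Genes with a locus over 200 bp and 2 or more libraries at or above 1 FPKM were tested (13802) on log2(FPKM + 1) with limma 3.58.1 (R 4.3.3, empirical Bayes with trend), group as factor and all libraries in 1 fit, with Benjamini-Hochberg adjustment and a threshold of 0.05. The procedure was tested on simulated data. Single members were also compared by exact permutation tests (scipy 1.17.1). Alternatives were a pseudocount of 0.1, other filters, 2 other scalings, the compared groups alone, no trend, array weights, a replicate block, a mean FPKM above 10 and each library left out. Libraries compared on rescaled values and percentiles were added after seeing the data. The members and the 12 lists (117 genes) were chosen with earlier results of these data known. All members were described in every library. Of each list, called genes up to 5, and otherwise genes among the 3 with the largest differences, could be named, as could Lmo2, Tal1 and the 5 genes most correlated with Runx1. Runx2, Runx3, Ptprc, Pf4, Tyrobp and Gata1 in the list descriptions, and Kdr, Kit, Tek and Itga2b as label checks, were named after their values were seen. Some genes that these rules would name are not reported here.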

Additional observations from a re-analysis of the deposited data

Results flagged for a closer look

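Runx1 differed in opposite directions between Flk-1+ cells and HE1 in the WT and Lmo2-/- lines, with both WT HE1 libraries below all WT Flk-1+ libraries and both Lmo2-/- HE1 libraries above all Lmo2-/- Flk-1+ libraries. The log2 difference between the stage changes of the 2 genotypes was 1.82 and did not pass the limma test (adjusted p = 0.259, between 0.164 and 0.613 over the alternatives). The Lmo2-/- part was no longer without overlap after rescaling to a common median or by percentile within the library.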

How the results depend on the processing

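The number of called members stayed within 1.5 times its value for most alternatives, and no called difference of a member changed sign. In Lmo2-/- differentiation it went from 3 to 1 when the 2 groups were fitted alone, and leaving out single libraries gave 2 to 3. Tal1-/- against WT Flk-1+ cells went from 0 to 1 with array weights (Hhex). Lmo2-/- against WT HE1 went from 0 to 1 with the replicate number as a block (Runx1t1, adjusted p = 0.0424 by limma), and from 0 to between 0 and 1 when single libraries were left out, as did the interaction, both through replicate 0 of Lmo2-/- HE1. The cause was not tested. Over 819 values of member differences in 56 results, 11 lost and 4 gained a call, and 33 that were not called changed sign, the largest of these being 0.59 in size. Deviations of same-numbered libraries of different groups were weakly correlated (-0.18 to 0.17). With 2 or 3 libraries a group this cannot settle whether the numbers pair the libraries, and the block is given only as a check. The count of members above WT HE1 without overlap in Lmo2-/- HE1 went from 2 to 1, and of those below from 1 to 2, on both other scales. In Lmo2-/- differentiation 5 members were without overlap as deposited and 3 after rescaling. Groups of 2 libraries and unknown depth limit what can be seen for Gfi1, Gfi1b, Myb and Spi1.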
